A study of Mus musculus with 13 samples.

Results

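Cytosolic ribosomal protein genes, the structural genes of the ribosome that translates nuclear-encoded mRNA, were examined in mouse pre-B cells of the B3 line that expressed Ikaros. A gene was a member if the single symbol of its probe set began with Rpl or Rps and a digit, or was Rpsa, Rplp0, Rplp1 or Rplp2, with the Rps6 kinases and names holding -ps left out. By this rule 63 of 19938 genes on the Gene 1.0 ST array and 50 of 18194 genes on the 430 2.0 array were members, 73 genes in all, of which 40 were on both arrays. They comprised 38 large-subunit genes, stalk genes included, 25 small-subunit genes, 9 paralogous forms and Rps19bp1, which meets the spelling rule but encodes a protein that binds Rps19 and is no part of the ribosome. Where a gene had several probe sets, the one with the highest mean stood for it. After the lowest 40% of genes by mean were set aside, 61 members were tested on Gene 1.0 ST (Rpl39l and Rpl3l were not) and 47 on 430 2.0 (Rps4l, Rps16 and Rpl39l were not).

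Ikaros, the product of Ikzf1, binds DNA through zinc fingers and acts in lymphocyte development. Every sample was B3 cells carrying a retroviral MSCV vector with an IRES-GFP cassette, and total RNA was measured. On Gene 1.0 ST there were 3 arrays of Ikaros-ERt2 cells given 4-hydroxytamoxifen for 2 h, 3 of Ikaros-ERt2 cells given it for 6 h and 3 of vector-ERt2 cells given it for 6 h. Ikaros-ERt2 is HA-tagged Ikaros joined to an estrogen receptor's hormone-binding domain, and vector-ERt2 cells carried that domain alone. On 430 2.0 there were 2 arrays of cells with HA-tagged wild-type Ikaros and 2 of cells with HA-tagged 159A, a mutant deficient in DNA binding, all collected at 48 h. The vector group has no 2 h sample and all Ikaros-ERt2 arrays come from drug-treated cells, so a difference between the lines and a response to the drug cannot be told apart. The comparison at 2 h sets Ikaros-ERt2 cells after 2 h of the drug against vector-ERt2 cells after 6 h. Line and time of exposure differ together in it. All cells are of 1 line, and the labels do not say how many transduced clones or pools were used.

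Ikzf1 read 13.22 to 13.40 on the 6 Ikaros-ERt2 arrays, against 9.16 to 9.39 on the 3 vector-ERt2 arrays, on the log2 scale of the deposited values. The vector-ERt2 array numbered 1 is named vector in its title and inducible Ikaros in another label field. Its Ikzf1 value was 9.16. For counts of calls over the vector, for the called genes and for the members first in order of p, values without it are given below. Without it 82 of all genes tested were called at 2 h and 335 at 6 h, against 223 and 692 with it. At 48 h Ikzf1 read 12.001 and 12.08 in Ikaros cells and 11.82 and 11.61 in 159A cells, both of which carry an Ikzf1 transgene. All 11 B-lineage markers measured on Gene 1.0 ST and all 10 on 430 2.0 lay above the filter on low genes, and 3 of 9 T-cell markers did so on each, while 0 of 10 myeloid markers did so on Gene 1.0 ST and 3 of 10 on 430 2.0.

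The large subunit of the ribosome joins amino acids and the small subunit reads the mRNA, and each ribosomal protein has its own place on the ribosomal RNA. Their mRNAs are among the most abundant in a growing cell. Most begin with a C followed by a run of pyrimidines, the 5′ terminal oligopyrimidine or TOP motif, through which the kinase complex mTORC1 controls their translation, so a change in ribosomal protein output need not show in mRNA levels. RNA polymerase I transcription and ribosome assembly factors are well-known transcriptional targets of Myc.

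The start sites of a few members are shown because the TOP motif sits there. The windows are RefSeq sequences of GRCm38.p6, 50 bases before and 15 from the annotated start, written 5′ to 3′ on the gene's strand, with capitals marking a C and the unbroken run of C or T that follows it where that run opens at the annotated start. Rps6 (chr4:86857353-86857417, minus strand) and Rps18 (chr17:33955651-33955715, minus strand) have such a start. Rpl12 (chr2:32961662-32961726, plus strand) and Rps27l (the first of its 2 starts, chr9:66946036-66946100, plus strand) have one that opens 2 bases and 1 base after the annotated start, and Rps19bp1 (chr15:80264292-80264356, minus strand) has none in the 15 bases.
Rps6: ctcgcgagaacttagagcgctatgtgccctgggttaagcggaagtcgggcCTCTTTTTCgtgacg
Rps18: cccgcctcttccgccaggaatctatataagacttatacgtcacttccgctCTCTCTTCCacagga
Rpl12: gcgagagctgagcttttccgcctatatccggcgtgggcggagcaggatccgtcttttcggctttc
Rps27l: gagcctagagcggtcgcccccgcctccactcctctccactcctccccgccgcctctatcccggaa
Rps19bp1: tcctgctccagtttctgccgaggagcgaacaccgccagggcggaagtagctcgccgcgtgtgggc

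Promoter windows of 300 bases were held for 61 of the 73 members, 71 windows in all. A C with at least 4 pyrimidines after it stood exactly at the annotated start in 16.9% of them, compared with 2.40% of the windows of genes tested on Gene 1.0 ST. GGGAA, the core of the Ikaros motif, was found on either strand in 66.2% of members' windows and in 64.5% of those of tested genes. CCGGAA, an ETS motif, was in 46.5% and 26.5%, AGATGGC, a YY1 motif, in 11.3% and 7.07%, the E-box CACGTG in 11.3% and 9.89%, and GGGCGG, an SP1 motif, in 54.9% and 61.4%. These shares describe letters in a window, and a gene can have several windows.

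After 2 h of 4-hydroxytamoxifen, 0 of 61 ribosomal protein genes passed the threshold of an adjusted p under 0.05 in Ikaros-ERt2 cells over vector-ERt2 cells, where 1.86% of all 11963 genes tested did (1.1% lower and 0.769% higher). This count and those below come from limma with Benjamini-Hochberg adjustment over all genes tested, and the ± beside a log2 change is the model's standard error. At an unadjusted p under 0.05 there were 3 members, against 14.1% of all genes. The median log2 change of the members was 0.0026, beside -0.0071 over all genes tested. Of the members, 60 (98.4%) changed by less than 0.25 log2 units either way, as did 89.8% of all genes. The 95% interval of the change lay within 1.5-fold for 59 of 61 members and for 94.5% of all genes; the exceptions were Rps27l and Rpl12. Without vector-ERt2 replicate 1 the count was also 0 and the median 0.01.

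The smallest p at 2 h belonged to Rps27l, a paralog of the small-subunit gene Rps27 that is a known target of p53. It read 10.21, 9.82 and 9.87 in Ikaros-ERt2 cells at 2 h, against 9.79, 9.55 and 9.29 in vector-ERt2 cells. All 3 Ikaros-ERt2 arrays lay above the vector arrays, and the change of 0.42 ± 0.13 did not pass (adjusted p = 0.152). Without vector-ERt2 replicate 1 it was 0.54 (adjusted p = 0.108). With the replicate number as a block it was 0.42 ± 0.10 (adjusted p = 0.0613). Rpl34, of the large subunit, read 9.18, 9.34 and 9.17 in Ikaros-ERt2 cells and 9.42, 9.48 and 9.38 in vector-ERt2 cells (-0.19 ± 0.08, adjusted p = 0.273; -0.20 and 0.426 without vector-ERt2 replicate 1). Rpl38, which in mouse embryos is needed for translation of Hox mRNAs, read 12.10, 11.97 and 12.12 in Ikaros-ERt2 cells and 12.16, 12.24 and 12.30 in vector-ERt2 cells (-0.17 ± 0.07, adjusted p = 0.293; -0.21 and 0.318 without that array). In both genes the Ikaros-ERt2 arrays lay below all vector arrays by a narrow margin.

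The other members with the smallest p at 2 h had adjusted p-values from 0.46 to 0.657. Their log2 changes were 0.12 ± 0.06 for Rpl22, 0.14 ± 0.08 for Rpl7a, 0.21 ± 0.12 for Rps3a1, -0.25 ± 0.16 for Rpl12, -0.09 ± 0.06 for Rpl10a, -0.14 ± 0.10 for Rps15a and 0.09 ± 0.07 for Rpl27a. The arrays of the groups did not overlap for 4 members that were lower in Ikaros-ERt2 cells (9.4% of all genes) and for 3 that were higher (9.23% of all genes). Both shares of the members, 6.56% and 4.92%, were below those of all genes.

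**Figure D1:**
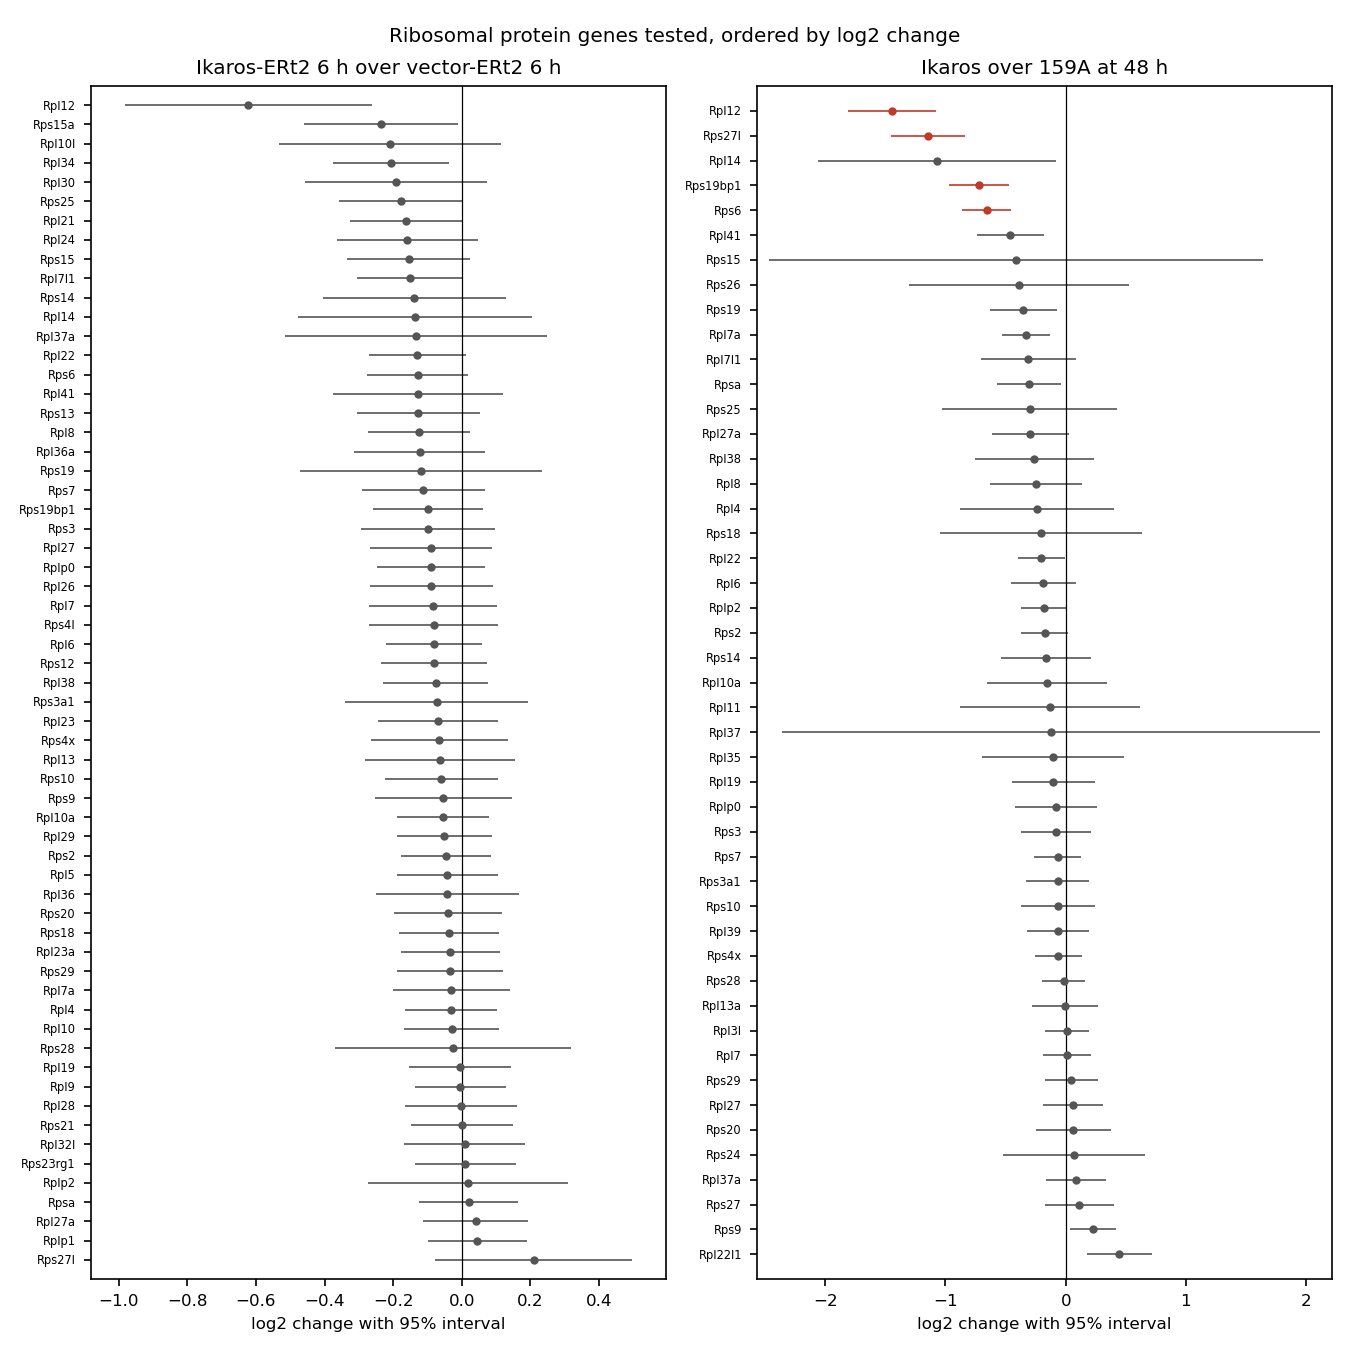
The log2 change of every tested ribosomal protein gene, in Ikaros-ERt2 cells over vector-ERt2 cells at 6 h (left, 61 genes) and in Ikaros over 159A cells at 48 h (right, 47 genes), with 95% intervals as bars and genes that passed the threshold in red. At 6 h the changes ran between -0.62 (Rpl12) and 0.21 (Rps27l) with none past the threshold, and at 48 h between -1.44 (Rpl12) and 0.45 (Rpl22l1) with 4 past it.

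At 6 h both lines had been exposed for the same time. This comparison uses the same vector arrays as the one at 2 h, so the values of both share those arrays' deviations. Here 0 of 61 ribosomal protein genes passed the threshold, where 5.78% of all genes tested did (3.2% lower and 2.58% higher). Small negative changes prevailed: 53 of 61 members had one, compared with 50.1% of all genes, and the median of the members was -0.08, beside -0.00016 over all genes. Of the large-subunit genes 29 of 30 had a negative change, as did 19 of 21 small-subunit genes, 1 of 3 stalk genes and 3 of 6 paralogous forms. None of these shifts is large: 60 of 61 members changed by less than 0.25 log2 units (86.5% of all genes), and the 95% interval lay within 1.5-fold for 60 of 61 (92.5% of all genes), the exception being Rpl12. At an unadjusted p under 0.05 there were 3 members, against 17.8% of all genes. Without vector-ERt2 replicate 1 the count stayed at 0, the median was -0.07 and 51 of 61 changes were negative. The median was -0.043 both without the 6 h array numbered 1 (47 of 61 negative) and after quantile normalization (46 of 61 negative).

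The shift of the members as a whole was of the size of the differences between arrays of a group. Taken as each array's median deviation from the genes' means over the 9 arrays, it was 0.01, 0.09 and -0.02 log2 units at 2 h, -0.09, 0.0047 and -0.04 at 6 h, and 0.03, 0.01 and 0.01 in vector-ERt2 cells. All 6 h arrays lay below all vector arrays, 1 of them only just. Over all genes tested the same medians stayed between -0.01 and 0.01. On 430 2.0 the members' medians were -0.11 and -0.0062 in Ikaros cells and 0.05 and 0.08 in 159A cells.

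**Figure D2:**
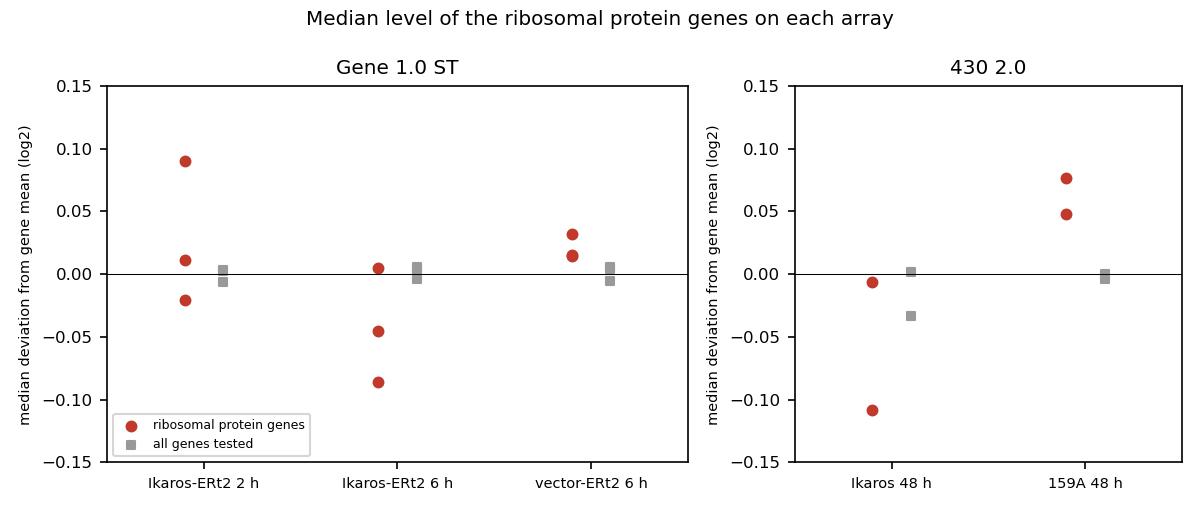
Median deviation from each gene's mean, in log2 units, on each of the 13 arrays, for the tested ribosomal protein genes (red circles) and for all genes tested (grey squares), with Gene 1.0 ST on the left and 430 2.0 on the right. The 2 h array numbered 2 stood at 0.09 and the 6 h array numbered 1 at -0.09, the highest and the lowest on Gene 1.0 ST, while all other arrays there lay between -0.04 and 0.03.

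Rpl12, which lies at the base of the ribosomal stalk, had the smallest p at 6 h. It read 7.19, 7.21 and 6.80 in Ikaros-ERt2 cells, against 7.95, 7.68 and 7.44 in vector-ERt2 cells. The groups did not overlap, and the change of -0.62 ± 0.16 missed the threshold narrowly (adjusted p = 0.0502). It passed in 5 of 9 other ways of processing (adjusted p = 0.0332 to 0.0499), all read from the same probe set. With the replicate number as a block it did not pass (adjusted p = 0.0635). With any 1 array of these groups left out it did not pass either (adjusted p = 0.0508 to 0.2). Without vector-ERt2 replicate 1 it was -0.49 (adjusted p = 0.2). Rpl34 read 9.18, 9.32 and 9.16 at 6 h in Ikaros-ERt2 cells and 9.42, 9.48 and 9.38 in vector-ERt2 cells (-0.21 ± 0.08, adjusted p = 0.165; -0.21 and 0.321 without vector-ERt2 replicate 1), again without overlap.

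Rps15a, a small-subunit gene, read 8.94, 8.94 and 8.95 in Ikaros-ERt2 cells at 6 h and 9.38, 9.11 and 9.04 in vector-ERt2 cells (-0.24 ± 0.10, adjusted p = 0.246). Rps6, the small-subunit protein that S6 kinases phosphorylate downstream of mTORC1, read 13.07, 13.03 and 13.09, against 13.12, 13.29 and 13.17 in vector-ERt2 cells (-0.13 ± 0.07, adjusted p = 0.367). Rpl22, a large-subunit gene needed in mouse T-cell development, read 8.32, 8.42 and 8.33, against 8.46, 8.50 and 8.50 in vector-ERt2 cells (-0.13 ± 0.06, adjusted p = 0.336). In each of these genes all 6 h arrays lay below all vector arrays. Without vector-ERt2 replicate 1 their changes were -0.13 (Rps15a), -0.17 (Rps6) and -0.14 (Rpl22). Changes of the remaining 5 named members were -0.18 ± 0.08 for Rps25, -0.15 ± 0.07 for Rpl7l1, -0.16 ± 0.07 for Rpl21, -0.16 ± 0.08 for Rps15 and -0.12 ± 0.07 for Rpl8, with adjusted p-values from 0.287 to 0.395. In all, 12 members had 6 h arrays below all vector arrays (19.7%, compared with 10.3% of all genes), and 0 had them above (11% of all genes).

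Within the inducible line, 0 of 61 members passed the threshold at 6 h over 2 h, where 0.903% of all genes did (0.527% lower and 0.376% higher). At an unadjusted p under 0.05 there were 6 (13.6% of all genes). The members' median was -0.08, beside 0.0088 over all genes, and 52 of 61 changes were negative (47% of all genes). Without the 2 h array numbered 2 the median was -0.0405 with 43 of 61 negative, and after quantile normalization -0.045 with 50 of 61 negative. The arrays did not overlap in 8 members that were lower at 6 h (6.91% of all genes) and in 2 that were higher, Rpl10a and Rpl38 (7.9% of all genes). This comparison shares the 2 h and 6 h arrays with those above, so its values are no separate evidence.

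Rpl22 had the smallest p between the times. Its arrays at 6 h, given above, lay below 8.58, 8.66 and 8.57 at 2 h (-0.25 ± 0.06, adjusted p = 0.113). Rps3a1, of the small subunit, read 10.14, 10.54 and 10.50 at 6 h and 10.66, 10.82 and 10.56 at 2 h (-0.28 ± 0.12, adjusted p = 0.331), also without overlap. Rpl10l, a testis-restricted copy of Rpl10, read 4.88, 4.77 and 5.47 at 6 h, against 5.44, 5.33 and 5.42 at 2 h (-0.36 ± 0.15, adjusted p = 0.317). The 6 h array numbered 3 stood apart in that gene. Without it, Rpl10l was the 1 member called, both over 2 h (-0.57, adjusted p = 0.0329) and over the vector at 6 h (-0.42, adjusted p = 0.0139). The other named members were Rpl12 (-0.38 ± 0.16), Rpl7a (-0.17 ± 0.08), Rps19bp1 (-0.16 ± 0.07), Rps25 (-0.17 ± 0.08), Rpl14 (-0.28 ± 0.15), Rps4x (-0.15 ± 0.09) and Rpl37a (-0.29 ± 0.17), with adjusted p-values from 0.34 to 0.519.

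At 48 h, 4 of 47 members passed the threshold, all lower in Ikaros cells than in 159A cells. They were Rpl12, Rps27l, Rps6 and Rps19bp1. That is 8.51% of the members beside 8.47% of all genes tested that were called lower, so the count was at the background. With the paralogous forms and Rps19bp1 set aside, 2 of 42 were called lower, Rpl12 and Rps6. Of the members 0 were called higher, beside 6.38% of all genes, and 14.8% of all genes were called in either direction. The members' median change was -0.15, beside 0 over all genes, and 37 of 47 changes were negative (48.9% of all genes). By the probe sets with the highest mean, the members' changes were small for this comparison. The dimmest probe set had the lower change in 17 of 20 members with several away from the floor, as given below. Of the members, 31 (66.0%) stayed within 0.25 log2 units, as did 32.3% of all genes, and the 95% interval lay within 1.5-fold for 25 of 47 members and for 17.9% of all genes. The members' median standard error was 0.09, beside 0.21 over all genes.

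Rpl12 read 7.71 and 7.50 in Ikaros cells, against 9.098 and 9.002 in 159A cells (-1.44 ± 0.11, adjusted p = 0.0270). Rps27l read 11.72 and 11.54 in Ikaros cells and 12.77 on both arrays of 159A cells (-1.15 ± 0.09, adjusted p = 0.0282). Rps6 read 11.46 and 11.38, against 12.08 on both arrays of 159A cells (-0.66 ± 0.06, adjusted p = 0.0319). In these genes the gap between the groups was several times the distance between arrays of a group. Rps19bp1, whose protein is also known as a partner of the deacetylase SIRT1, read 9.01 and 8.90 in Ikaros cells and 9.71 and 9.65 in 159A cells (-0.72 ± 0.08, adjusted p = 0.0351). With 2 arrays a group these calls are fragile: with any 1 of the 4 arrays left out, 0 members and 0 genes of all were called, and the adjusted p-values of these genes then ran between 0.0807 and 0.224.

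**Figure D3:**
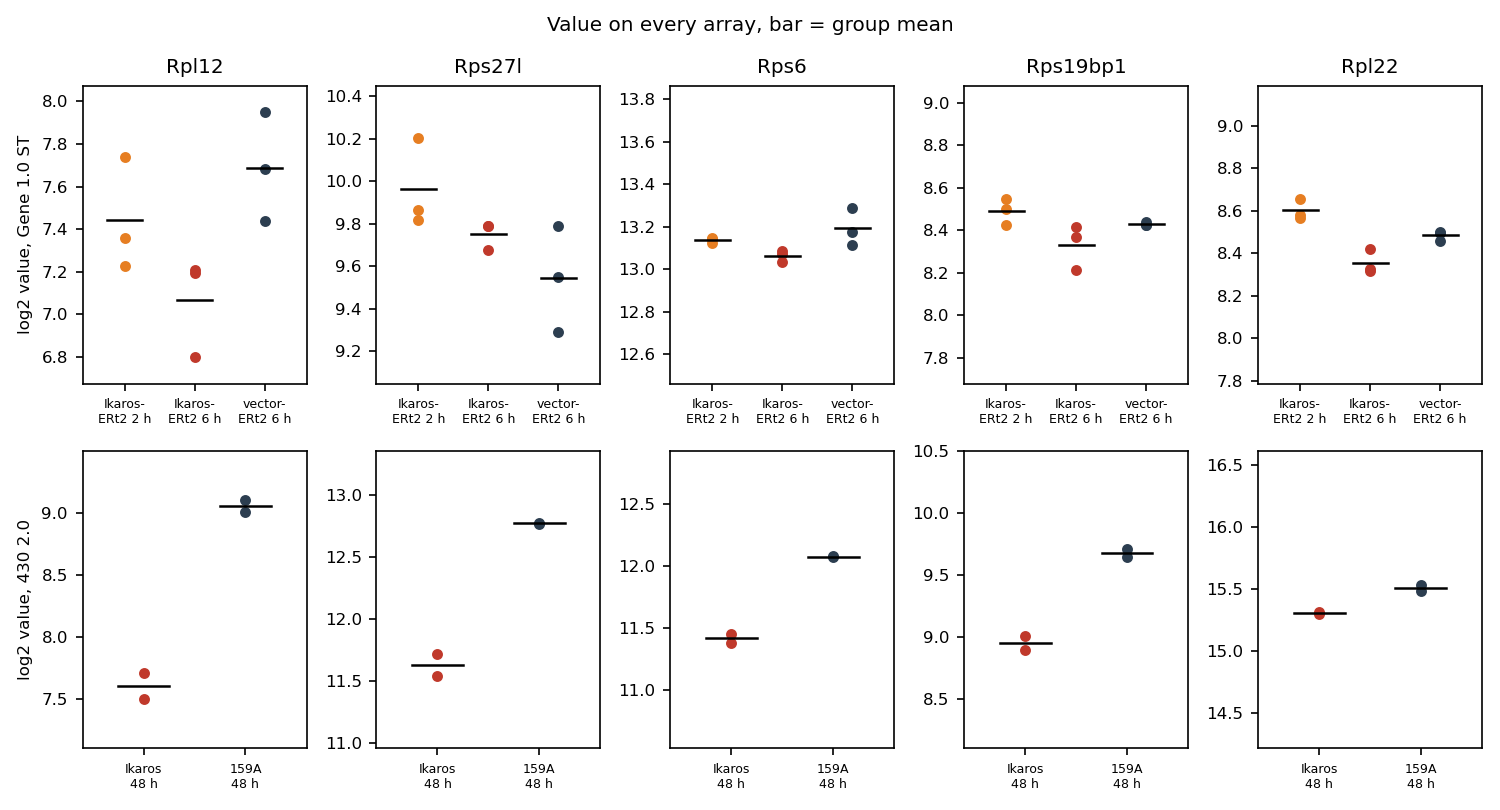
The log2 value of 5 members, Rps19bp1 among them, on every array, as points with the group mean as a bar, on Gene 1.0 ST (upper row, Ikaros-ERt2 at 2 h and 6 h, then vector-ERt2) and on 430 2.0 (lower row, Ikaros, then 159A). Levels cannot be compared between the rows. Rps27l at 48 h lay at 11.72 and 11.54 in Ikaros cells against 12.77 in 159A cells, while on the upper row its 2 h arrays lay above the vector arrays.

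The members next in order of p at 48 h did not pass. Rpl41, the shortest ribosomal protein, read 14.81 and 14.95 in Ikaros cells and 15.32 and 15.37 in 159A cells (-0.46 ± 0.08, adjusted p = 0.0694). Rpl22l1, the paralog that Rpl22 is known to repress in mouse, read 14.54 and 14.64 in Ikaros cells, against 14.09 and 14.19 in 159A cells (0.45 ± 0.08, adjusted p = 0.0699). It was the largest positive change among the tested members, and Rpl22 itself stood at -0.20 (adjusted p = 0.140).

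Changes of -0.33 ± 0.06 for Rpl7a, -0.35 ± 0.08 for Rps19, a gene mutated in Diamond-Blackfan anaemia, 0.22 ± 0.06 for Rps9 and -0.30 ± 0.08 for Rpsa had adjusted p-values from 0.0699 to 0.123. The arrays did not overlap in 21 members that were lower in Ikaros cells (44.7%, compared with 30% of all genes) and in 3 that were higher (6.38%, compared with 27.7% of all genes). The 3 were Rpl22l1, Rpl37a and Rps9. At an unadjusted p under 0.05 there were 12 members (33.7% of all genes).

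Which probe set stood for a gene decided several values at 48 h. In the same model fitted over all probe sets, 7 of 100 member probe sets were called, all lower. Beside them, 873 of all 27061 probe sets were called lower, and 5.48% in either direction. The 7 were the 1 of Rpl12, the 1 of Rps19bp1, all 3 of Rps27l, 1 of Rps6 and 1 of Rps20. Rps27l was lower by each probe set, with log2 changes of -1.15, -1.45 and -1.58. The other Rps6 probe set lay near the array's floor at 2.61 in both groups, so the call of Rps6 rests on 1 probe set.

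Rps20, of the small subunit, had 4 probe sets. The probe set that stood for it, with means of 16.26 in Ikaros cells and 16.19 in 159A cells, changed by 0.06 ± 0.08, and another by -0.03 ± 0.04. The probe set with means of 6.68 and 8.43 changed by -1.75 ± 0.16 (adjusted p = 0.0529), and the one with means of 3.30 and 5.44 by -2.14 ± 0.09 (adjusted p = 0.0287), with the lower mean little more than 1 log2 unit above the array's floor of 2.19. Rps24 changed by 0.07 in the probe set that stood for it and by -2.67 ± 0.26 in its dimmest (adjusted p = 0.0554), and Rps9 by 0.22 and -1.28 ± 0.14 (adjusted p = 0.0639). Of 23 members with several probe sets in this model, 5 had 7 probe sets within 1 log2 unit of the floor in a group mean, where a change has no exact size. With these left out 20 members had several, and in 7 of them (Rpl37a, Rpl41, Rps10, Rps20, Rps24, Rps3 and Rps9) the changes differed by more than 0.5 log2 units between probe sets, by up to 2.74. In 17 of the 20 the dimmest probe set had the lower change, and in 3 the higher one, with a median difference, dimmest minus brightest, of -0.27.

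Probe sets with the suffix _x_at hold probes shared with other transcripts, by the manufacturer's naming. They were the brightest of 12 of the 20 members and the dimmest of 8, while probe sets with the plain suffix _at were the brightest of 1 and the dimmest of 9. Over the 91 member probe sets away from the floor the median change was -0.08 for the 38 with _x_at and -0.63 for the 22 with the plain suffix. The part of shared probes, and of signals near the top of the array's range, in these differences was not tested. On Gene 1.0 ST the single-symbol probe sets of a member differed less: 39 members had several. The widest range of log2 changes within one was 0.20 at 2 h, 0.18 at 6 h and 0.23 at 6 h over 2 h. The 3 probe sets of Rpl41 had equal changes in each of these comparisons, so such agreement need not be separate evidence.

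**Figure D4:**
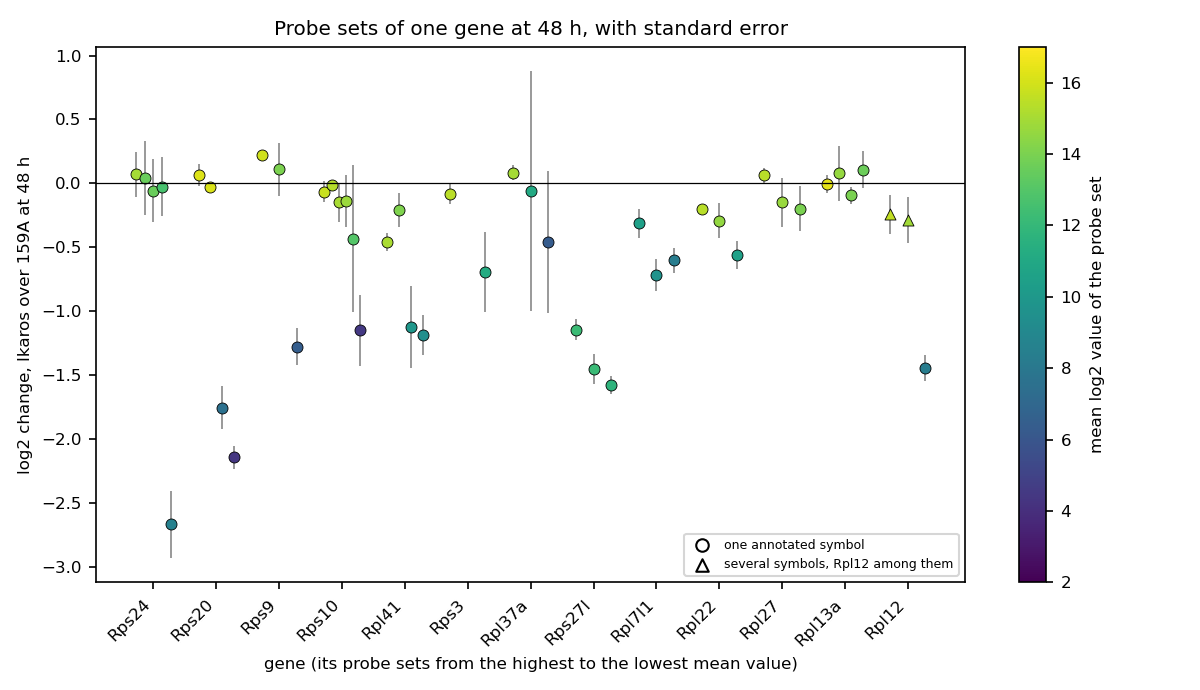
The log2 change in Ikaros over 159A cells at 48 h of every probe set of 13 ribosomal protein genes, with standard errors, each gene's probe sets ordered left to right by falling mean value and coloured by that mean; genes other than Rpl12 are the 12 whose probe sets differ most, probe sets near the floor left out, and triangles are probe sets with several symbols. In Rps20 the bright probe sets stood at 0.06 and -0.03 and the dim ones at -1.75 and -2.14, whereas all 3 of Rps27l lay between -1.15 and -1.58.

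Rpl12 was read by 1 single-symbol probe set on each array type, and both gave low signals. A probe set's signal depends on its probes as well as on the RNA. Probe sets that list Rpl12 together with predicted genes gave other values. At 48 h they changed by -0.29 ± 0.18 and -0.24 ± 0.15 (adjusted p = 0.524 for both), with means of 14.78 and 15.48 in Ikaros cells and 15.07 and 15.72 in 159A cells. At 6 h the 7 such probe sets on Gene 1.0 ST changed by -0.05 to 0.04 log2 units, with means of 12.17 to 12.69 in Ikaros-ERt2 cells and 12.22 to 12.72 in vector-ERt2 cells. A further probe set listed Rpl12 and Snora65, a small nucleolar RNA gene that lies inside Rpl12 (chr2:32963301-32963418 within chr2:32961712-32964045, GRCm38.p6). It averaged 6.44 ± 0.26 in Ikaros-ERt2 cells at 6 h and 7.47 ± 0.19 in vector-ERt2 cells (SD, n = 3 each; -1.03 ± 0.16, adjusted p = 0.0161), and which of its genes it read cannot be told. It was the only one of 238 several-symbol probe sets with a ribosomal protein name to pass at 6 h, beside 1.84% of all probe sets. In the fit over probe sets the single-symbol one of Rpl12 had an adjusted p of 0.154 at 6 h.

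The stalk genes, whose products recruit translation factors to the large subunit, changed little. Rplp0 stood at -0.03 ± 0.07 at 2 h over the vector, -0.09 ± 0.07 at 6 h over the vector and -0.08 ± 0.10 at 48 h. Rplp1 stood at -0.05 ± 0.07 and 0.05 ± 0.07 over the vector and had no single-symbol probe set on 430 2.0. Rplp2 stood at 0.04 ± 0.13 and 0.02 ± 0.13 over the vector and at -0.18 ± 0.06 at 48 h, where it read 15.82 on both Ikaros arrays, against 16.03 and 15.98 in 159A cells (adjusted p = 0.157). All these 95% intervals lay within 1.5-fold.

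Among the paralogous forms, those restricted to muscle or testis were at the low end. Rpl3l, the muscle form of Rpl3, read 4.38 to 4.54 on the 9 Gene 1.0 ST arrays and was not tested there, and on 430 2.0 it lay near the floor. Rpl39l, the testis form of Rpl39, read 3.49 to 3.88 on Gene 1.0 ST and 2.19 to 2.20 on 430 2.0, and was tested on neither. Rps4l read 7.08 to 7.35 on Gene 1.0 ST, with changes of -0.08 ± 0.09 at 2 h and at 6 h over the vector, and sat at the floor of 430 2.0.

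Rpl7l1, a copy of Rpl7 that acts in assembly of the large subunit, read 9.13, 9.19 and 9.25 in Ikaros-ERt2 cells at 6 h and 9.35, 9.37 and 9.31 in vector-ERt2 cells, without overlap. At 48 h it read 10.21 and 10.46 in Ikaros cells and 10.64 and 10.67 in 159A cells (-0.31 ± 0.12, adjusted p = 0.214), while its other 2 probe sets changed by -0.71 ± 0.12 and -0.60 ± 0.10 (adjusted p = 0.107 and 0.0966). Rpl32l and Rps23rg1 stood at 0.01 ± 0.08 and 0.01 ± 0.07 at 6 h over the vector. Rps27l at that time read 9.79, 9.79 and 9.68 in Ikaros-ERt2 cells and 9.79, 9.55 and 9.29 in vector-ERt2 cells (0.21 ± 0.13, adjusted p = 0.477). On 430 2.0, Rps27, its paralog, lay near the floor and Rps16 at it, so these probe sets say nothing of either gene.

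Many ribosome assembly factors, which build ribosomes without staying in them, were lower in Ikaros-ERt2 cells at 6 h than in vector-ERt2 cells. The list also holds Polr1b, which encodes a subunit of RNA polymerase I and no assembly factor. Of 51 genes tested, 28 were called lower and 0 higher, where 3.2% of all genes were called lower and 2.58% higher. All 51 changes were negative and the median was -0.36. Below, fell and rose mean called lower and called higher in the comparison named, which need not be a change over time. The ribosomal protein genes there had 0 of 61 called and a median of -0.08, and the difference between the lists was not tested. Without vector-ERt2 replicate 1, 15 of the 51 genes of the assembly list fell, with a median of -0.32. With any other array of these groups left out 19 to 28 fell. Polr1b, a subunit of RNA polymerase I, changed by -1.03 ± 0.08 (adjusted p = 0.00012), and Rrs1 and Grwd1, of large-subunit assembly, by -0.85 ± 0.13 (adjusted p = 0.00277) and -0.75 ± 0.12 (adjusted p = 0.0037), and all 3 also passed without that array. At 2 h 1 of 51 fell, Polr1b (-0.60 ± 0.08, adjusted p = 0.00486), with a median of -0.03, beside 1.1% of all genes; without vector-ERt2 replicate 1 it was the 1 called too (-0.58, adjusted p = 0.0324). At 6 h over 2 h 12 of 51 fell, beside 0.527% of all genes; 12 did so without the 6 h array numbered 2, but 0 to 5 with any of the other arrays of these groups left out. At 48 h 23 of 50 fell and 0 rose, where 8.47% of all genes fell and 6.38% rose, with a median of -1.47, all changes negative, and Polr1b at -4.07 ± 0.18 (adjusted p = 0.0194). With any 1 of the 48 h arrays left out, 0 genes of this or any list below were called. Myc was lower at 2 h and 6 h over the vector (-1.32 ± 0.15 and -1.46 ± 0.15, adjusted p = 0.00167 and 0.000437; -1.37 and -1.51 without vector-ERt2 replicate 1, adjusted p = 0.0128 and 0.00394) and at 48 h (-2.86 ± 0.11, adjusted p = 0.018).

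Mitochondrial ribosomal proteins, which serve the separate ribosome of mitochondria, had medians of 0.09, -0.05 and -0.57 at 2 h, 6 h and 48 h. Of them 0 of 77 passed at 2 h, where 1.86% of all genes did. At 6 h 3 of 77 fell and 0 rose, near the background of 3.2% lower and 2.58% higher, and the median ran between -0.10 and -0.0090 with an array left out. At 48 h 17 of 76 fell and 1 rose, beside 8.47% and 6.38% of all genes. The 3 at 6 h were Mrpl24 (-0.57 ± 0.07, adjusted p = 0.00131), Mrpl52 (-0.50 ± 0.09, adjusted p = 0.00801) and Mrps34 (-0.48 ± 0.10, adjusted p = 0.0158), of which Mrps34 did not pass without vector-ERt2 replicate 1 (-0.42, adjusted p = 0.0812). Translation factors and other genes whose mRNAs carry a TOP motif had 0 of 21 members past the threshold at 2 h and at 6 h and 0 of 22 at 48 h, with medians of 0.04, -0.06 and -0.05, where 1.86%, 5.78% and 14.8% of all genes passed. The smallest p-values among them belonged to Eef1d at 2 h (0.37 ± 0.12, adjusted p = 0.178; 0.0443 with the replicate number as a block, where 1 of 21 was called), Npm1 at 6 h (-0.35 ± 0.11, adjusted p = 0.0889) and Nap1l1 at 48 h (-0.88 ± 0.17, adjusted p = 0.0759).

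**Figure D5:**
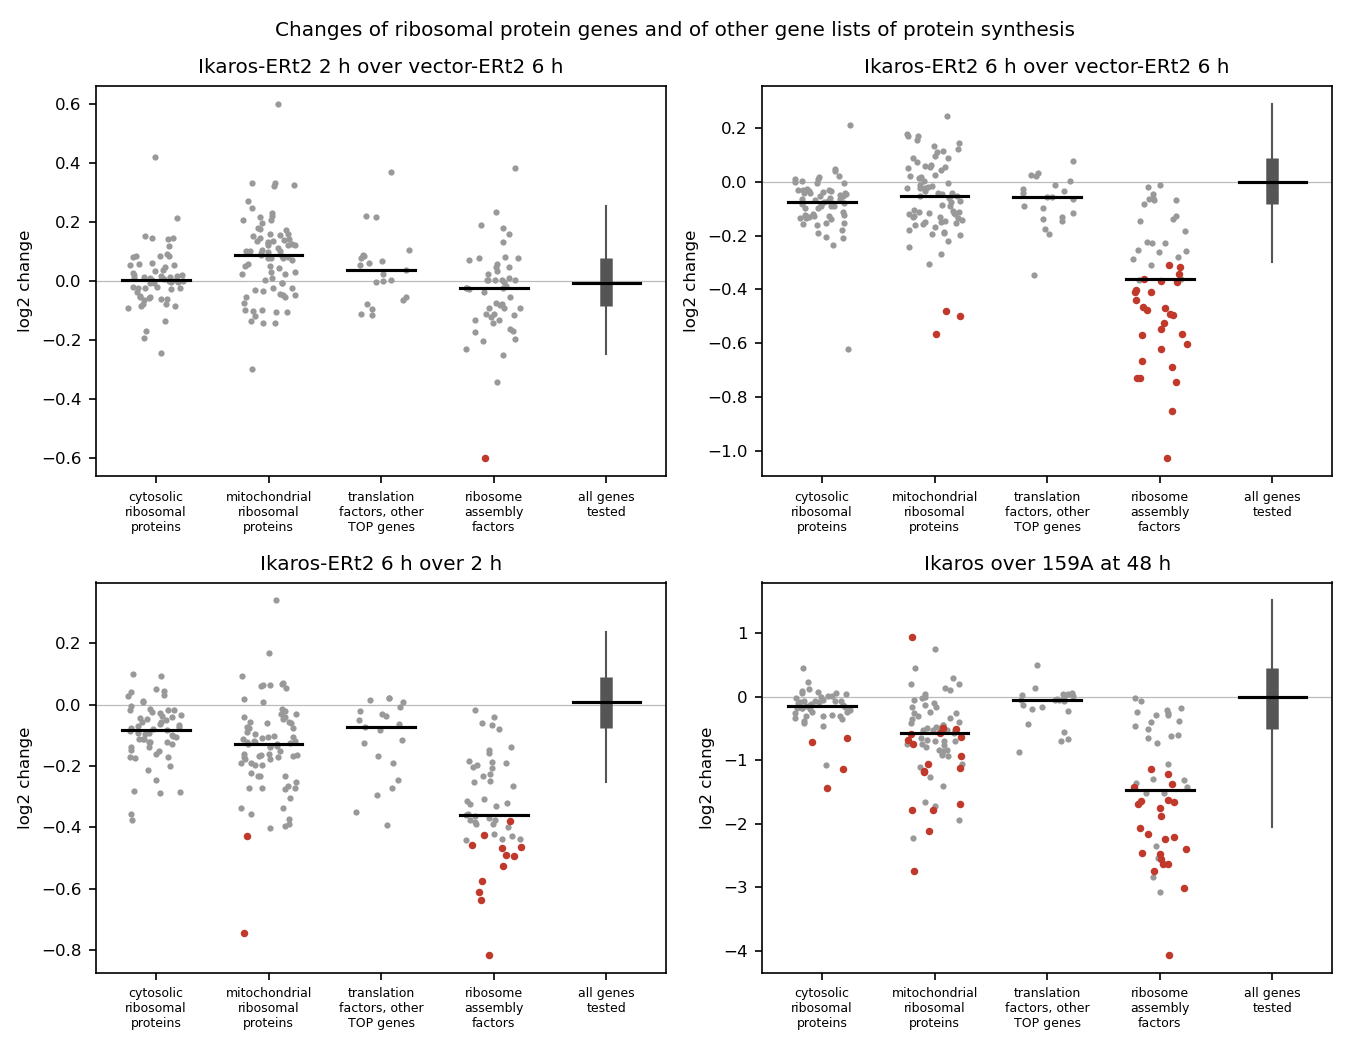
Log2 changes of single genes (points, red where past the threshold, black line at the median) for cytosolic ribosomal proteins, mitochondrial ribosomal proteins, translation factors and other TOP genes, and ribosome assembly factors, in the 4 comparisons; the rightmost column shows all genes tested, with a thick bar for the quartiles and a thin one for the 5th to 95th percentile. At 6 h over the vector the assembly factors had a median of -0.36 with 28 of 51 in red, and the ribosomal protein genes a median of -0.08 with 0 of 61.

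Genes of mTORC1 signalling and translational control had few calls. At 6 h over the vector 1 of 23 fell (3.2% of all genes), Larp1, which binds TOP motifs (-0.36 ± 0.06, adjusted p = 0.00697), and 1 rose (2.58% of all genes), Eef2k, the kinase that inhibits elongation factor 2 (0.43 ± 0.10, adjusted p = 0.035). Without vector-ERt2 replicate 1 Larp1 was at -0.38 (adjusted p = 0.0274), and Eef2k, at 0.45, did not pass (adjusted p = 0.0999). At 48 h 3 rose and 1 fell of 23, beside 6.38% and 8.47% of all genes: Sesn1, a mTORC1 inhibitor, by 2.20 ± 0.12 (adjusted p = 0.0216), Eef2k by 2.19 ± 0.23 (adjusted p = 0.0344), Rragc by 0.64 ± 0.06 (adjusted p = 0.0302) and Deptor, a mTOR inhibitor, at -1.94 ± 0.17 (adjusted p = 0.0306). Chaperones and importers of ribosomal proteins had 1 of 16 lower at 6 h, Grwd1, which is also in the assembly list, and 2 of 17 lower at 48 h, Grwd1 (-2.74 ± 0.10, adjusted p = 0.018) and the importin gene Ipo5 (-2.26 ± 0.21, adjusted p = 0.0312). These stand beside 3.2% of all genes called lower at 6 h and 8.47% at 48 h. At 2 h 0 of 23 and 0 of 16 passed. The counts over the vector of the chaperone and TOP lists were the same without vector-ERt2 replicate 1. With the replicate number as a block 1 of the 23 mTORC1 genes was called at 2 h, Ddit4 (-0.66, adjusted p = 0.0283). Arrays report RNA relative to the other RNA of a sample, so a change in total RNA per cell would not show in any of these values.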

How the data were processed

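RNA of 13 samples in 5 groups was hybridised to 9 Gene 1.0 ST and 4 430 2.0 arrays. The authors deposited log2 values, 1 for each probe set on each array. GCRMA, RMA, affy and limma appear in the submitters' processing notes with no version, and which tool made which table is not given in the sources used here. Scan dates are likewise not given. Per the labels' protocols, RNA was amplified with a two-cycle kit or a whole-transcript kit. On 430 2.0, 36.7% of values lay within 0.01 of the lowest, 2.19, a floor below which changes cannot be seen. The array types were tested apart, and no level was compared between them.

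Names came from GEO's annotation of each array, and only those with 1 symbol were used. A further 239 and 110 probe sets list a ribosomal protein among several symbols and stand for no gene here. Gene numbers checked against RefSeq changed 0 symbols. limma 3.58.1 in R 4.3.3 (lmFit, eBayes, two-sided, Benjamini-Hochberg over all genes tested, adjusted p under 0.05) was run on all 9 arrays and on all 4 arrays. It was tested on simulated data. The number of arrays limits precision. Nothing in the labels tells whether the samples called biological replicates came from separate cultures, so the spread behind each p-value may be technical.

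The members and gene lists were chosen with earlier results of these data known. Named members were those called, filled to 10 per comparison by smallest p, the stalk genes, the paralogous forms and Rps19bp1. The 12 genes in the plot of probe sets, and the probe sets described, were picked with their values in view, and Rpl32l and Rps23rg1 were then put among the paralogous forms. Arrays with the same number deviated together on 430 2.0 (r = 0.57 for both pairs and -0.57 for the others, sizes that 2 arrays a group make equal). The labels do not tie these numbers, so the 48 h arrays were not taken as pairs in the main fit. On Gene 1.0 ST all 3 same-numbered pairs of 2 h and vector arrays also deviated together (r = 0.12 to 0.23, against -0.15 to 0.04 for other pairs). Those of 6 h with the vector (r = -0.10 to 0.11) and of 6 h with 2 h (r = -0.26 to 0.24) did not. By these data the numbers may pair the 48 h arrays, and the 2 h and vector arrays, which the labels do not say. The values given above took no account of pairs unless a block is named.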

Additional observations from a re-analysis of the deposited data

How the results depend on the processing

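Alternatives were no filter, a 60% filter on low genes, quantile normalization again, arrays centred on their median, robust eBayes with an intensity trend, the replicate block, only the 2 groups compared (Gene 1.0 ST), the mean or the lowest probe set of a gene, and each array left out. At 2 h, 0 ribosomal protein genes were called in any of them, and all genes called numbered 141 with no filter and 82 to 176 with an array left out. At 6 h over the vector 1 member, Rpl12, was called with the 60% filter, quantile normalization, centring, trend and robust, or the mean of probe sets, and 0 or 1 with an array left out (Rpl10l), where all genes called numbered 335 to 652. At 6 h over 2 h, 0 or 1 members were called with an array left out, and of all genes 59 with no filter, 0 with only the 2 groups (1301 at an unadjusted p under 0.05), and 9 to 149 with an array left out. At 48 h the members called numbered 0 with no filter, 2 with the 60% filter, 2 with centring, 3 with quantile normalization or trend and robust, 7 with the mean of probe sets (adding Rpl41, Rpl7l1 and Rps20), 2 with the lowest probe set (Rps20 and Rps27l) and 0 with any array left out. Rpl12 and Rps27l were those called with the 60% filter and with centring. Rps19bp1 was called beside them with quantile normalization, and Rps6 with trend and robust. All genes called at 48 h then numbered 185 with no filter, 2437 with centring (50.7% higher, against 42.9% in the values as deposited), 336 with the lowest probe set and 0 with an array left out. The cause of these moves was not tested. The members' median at 48 h was -0.10 after quantile normalization, -0.049 after centring, where the median of all genes was 0.11 and 27 of 47 members were negative, and -0.17 to -0.067 with an array left out. With the replicate block at 48 h, 0 members and 0 genes were called (10 members at an unadjusted p under 0.05), with Rpl12 at an adjusted p of 0.0554 and Rps27l at 0.0574; the labels do not say that numbers pair samples. At 2 h, where same-numbered arrays deviated together, the block gave 0 members and 263 genes, and 1 call more in each of the lists of TOP and mTORC1 genes; it changed no call of a member at 6 h. The lists beside the members were tried with arrays left out and with the block, and probe sets near the floor were left out, as choices made after seeing the data. Signals near the 430 2.0 floor have no exact size.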

Other observations

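On 430 2.0, 3 of 107 probe sets that list a ribosomal protein with other symbols were called at 48 h, all lower in Ikaros cells than in 159A cells. Beside them, 873 of all 27061 probe sets were called lower, and 5.48% in either direction. The 3 listed Rpl23, Rpl21 or Rps2 among predicted genes and changed by -0.59 ± 0.03, -1.36 ± 0.10 and -0.47 ± 0.04 log2 units (adjusted p = 0.0317, 0.0451 and 0.0486). Which gene each one read cannot be told. Rpl35, a large-subunit gene, had 6 probe sets there, of which 5 changed by -0.16 to -0.11 and the one near the floor by -0.67 ± 0.53.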
